A study of Mus musculus with 16 samples.

Results

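The genes described here encode 54 glycoproteins and proteoglycans of the extracellular matrix and the cell surface. They were chosen by symbol, with earlier results of these data known. All 54 were found among the 31053 genes of the deposited expression table of wild-type (WT) and Fam134b knockout (KO) C2C12 cells. Of these, 45 passed the filter on low values (10 or more normalized counts in 4 or more of the 16 samples) and were tested among 10767 genes. The other 9, namely Tgfbi, Lum, Lama4, Eln, Fbn2, Efemp1, Mfap2, Mfap4 and Gpc4, were too low to test.

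The matrix around a muscle fibre is made of collagens and of the glycoproteins and proteoglycans that bind them, hold growth factors and anchor cells. Fibronectin and the matricellular glycoproteins connect cells to fibres and change how cells respond to them. Laminins, nidogens, perlecan and agrin build the basement membrane that ensheathes each fibre, while fibrillins and fibulins form microfibrils to which the latent TGF-beta binding proteins attach. Small leucine-rich proteoglycans coat collagen fibrils, and syndecans and glypicans carry heparan sulfate chains at the cell surface. All of these proteins enter the secretory pathway through the endoplasmic reticulum (ER), and FAM134B is a receptor that brings parts of the ER to autophagy.

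C2C12 is a mouse myoblast line that fuses into multinucleated myotubes in culture. The 4 groups were WT myoblasts, WT myotubes, KO myoblasts and KO myotubes, with 4 biological replicates each, labelled UNDIFF and DIFF for myoblasts and myotubes. All were kept in DMEM with 10% FBS, and differentiation into myotubes is described as spontaneous. The KO line was made with a lentiviral CRISPR-Cas9 vector carrying a pair of guides against Fam134b and selected with antibiotics, so all KO samples come from 1 edited line, and whether it is a clone is not given in the sources used here. The genotype field of the labels reads unknown, and genotype and stage were taken from the sample titles. In these bulk samples, fewer cells of a type and less RNA per cell cannot be told apart.

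mRNA was counted by a digital mRNA sequencing service, with 1484750 to 3287461 reads on genes per sample. Values are normalized counts unless stated otherwise, listed for replicates 1 to 4, on which 3 reads equal 2.49 to 5.99 depending on the sample, and adjusted p-values are from limma with Benjamini-Hochberg adjustment over the 10767 genes. Log2 fold changes are differences of log2(normalized count + 1) with their standard error (SE), so they understate the change of genes with few reads. Fam134b itself had normalized counts of 149.7 to 251 in WT myoblasts and 23.4 to 35.6 in KO myoblasts. In myotubes it had 146 to 287 in WT and 28 to 56.9 in KO, so each KO library lay below each WT library of its stage. Summed over 16 muscle markers, the normalized count was 2871 to 4306 in WT myoblasts and 304 to 413 in KO myoblasts, and 29741 to 43897 in WT myotubes against 12903 to 17008 in KO myotubes. Of the 15 muscle markers tested, 14 were lower in KO myoblasts, against 8.5% of all tested genes, and 11 in KO myotubes, against 13.7%. Myf5 was the tested marker not called lower in KO myoblasts. Myog, a regulator of muscle differentiation, had no read in KO myoblasts. KO myotube replicates 2 and 4 were the shallowest libraries, with 1790524 and 1484750 reads.

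Most of the tested matrix genes were higher in myotubes than in myoblasts of the same line. In WT cells, 27 of the 45 rose (60%), against 13.8% of all tested genes, and 0 fell, against 9.16%. At an unadjusted p under 0.05, 3 of the 45 (Ltbp2, Sdc4 and Thbs1) were lower, and limma voom on the recovered reads called 1 lower. In KO cells, 29 rose (64.4%), against 17.3% of all tested genes, and Ctgf and Ltbp2 fell (4.44%), against 16.1%. The median log2 fold change over the 45 genes was 1.17 in WT and 1.13 in KO cells, beside -0.01 and -0.02 over all tested genes. Both lines shared 24 of the risers, which were 88.9% of the WT list and 82.8% of the KO list. The matching overlap over all tested genes was not computed, so these shares are not read as particular to matrix genes. Fmod, Lamc1 and Nid2 passed the test in WT cells and not in KO cells, and Cyr61, Lamb1, Lamb2, Mfap5 and Spp1 in KO cells and not in WT cells. The difference between the lines was itself called for Lamb1 alone, higher in KO cells (2.22% of the 45, against 1.97% of all tested genes called higher and 1.48% called lower). With quantile normalization, which moved the split of all called genes in WT cells from 1488 higher and 986 lower to 1418 and 1434, 26 of the 45 rose and 3 fell.

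**Figure D1:**
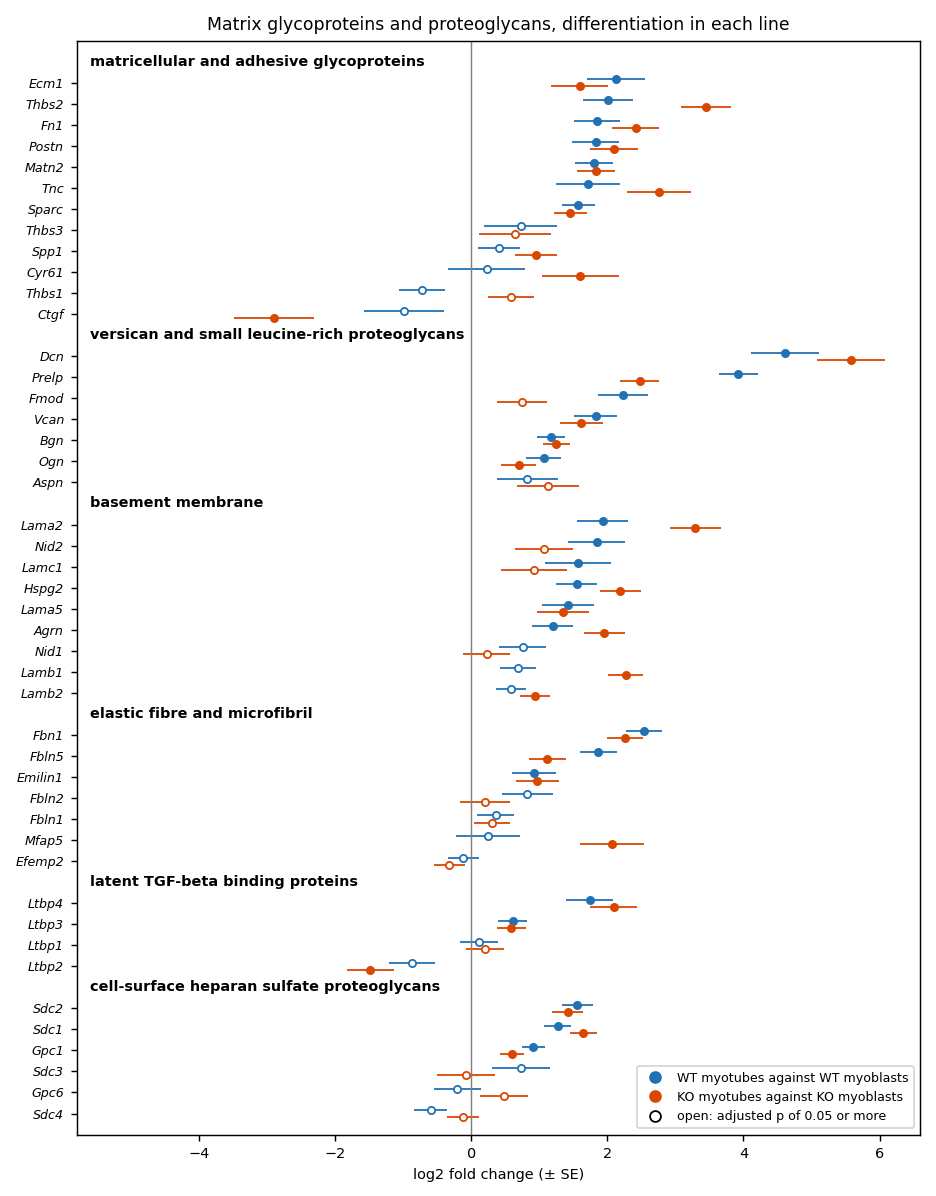
Log2 fold change of myotubes against myoblasts (x axis) for the 45 tested genes, grouped by role and ordered by the WT value, in WT (blue) and KO cells (orange). Bars are the SE of limma (n = 4 per group), filled points have an adjusted p under 0.05, and most filled points lie to the right of 0 in both lines, with Ctgf and Ltbp2 in KO cells to its left.

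At both stages, some of the 45 genes were higher and some lower in KO cells than in WT cells. In myoblasts, 9 of the 45 genes were higher in KO (20%), against 7.26% of all tested genes, and 7 were lower (15.6%), against 8.5%. In myotubes, 17 were higher (37.8%), against 9.74%, and 4 were lower (8.89%), against 13.7%. The share called lower in myotubes was under that of all tested genes. Aspn, Bgn, Emilin1, Fmod, Matn2, Prelp, Sdc2 and Thbs2 were higher in KO at both stages, which is 88.9% of the myoblast list and 47.1% of the myotube list. Gpc1, Lama2 and Ltbp2 were lower at both stages. The overlap of the stages over all tested genes was not computed either. The median log2 difference over the 45 genes was 0.38 in myoblasts and 0.37 in myotubes, beside -0.01 and -0.07 over all tested genes. These differences go with the lower muscle markers given above, whose part in them was not tested.

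The counts of KO against WT calls moved with single libraries. In myoblasts, Aspn, Fmod, Matn2 and Prelp stayed higher and Lama2, Lamb1, Sdc1 and Sdc4 lower whichever of the 16 libraries was left out. The count of higher genes was 5 without WT myoblast replicate 3, and 4 without WT myoblast replicate 4, KO myoblast replicate 1 or KO myoblast replicate 3, where the share of all tested genes called higher was also below its 7.26%, at 5.36 to 5.63%. The count of lower genes was 4 without WT myoblast replicate 1, KO myoblast replicate 2 or KO myoblast replicate 4, with 6.84 to 8.09% of all tested genes called lower, against 8.5%. At 4 of the 45 (8.89%), the lower genes were near these shares. In myotubes, Aspn, Bgn, Matn2, Mfap5, Postn, Prelp and Thbs2 stayed higher and Gpc1, Lama2 and Ltbp2 lower. There the count of higher genes was 9 without WT myotube replicate 2 or 4, 11 without WT myotube replicate 3, 8 without KO myotube replicate 1, and 11 without both of the shallowest KO myotube libraries. The share of all tested genes called higher was 7.09 to 9.59% in these fits, against 9.74%.

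**Figure D2:**
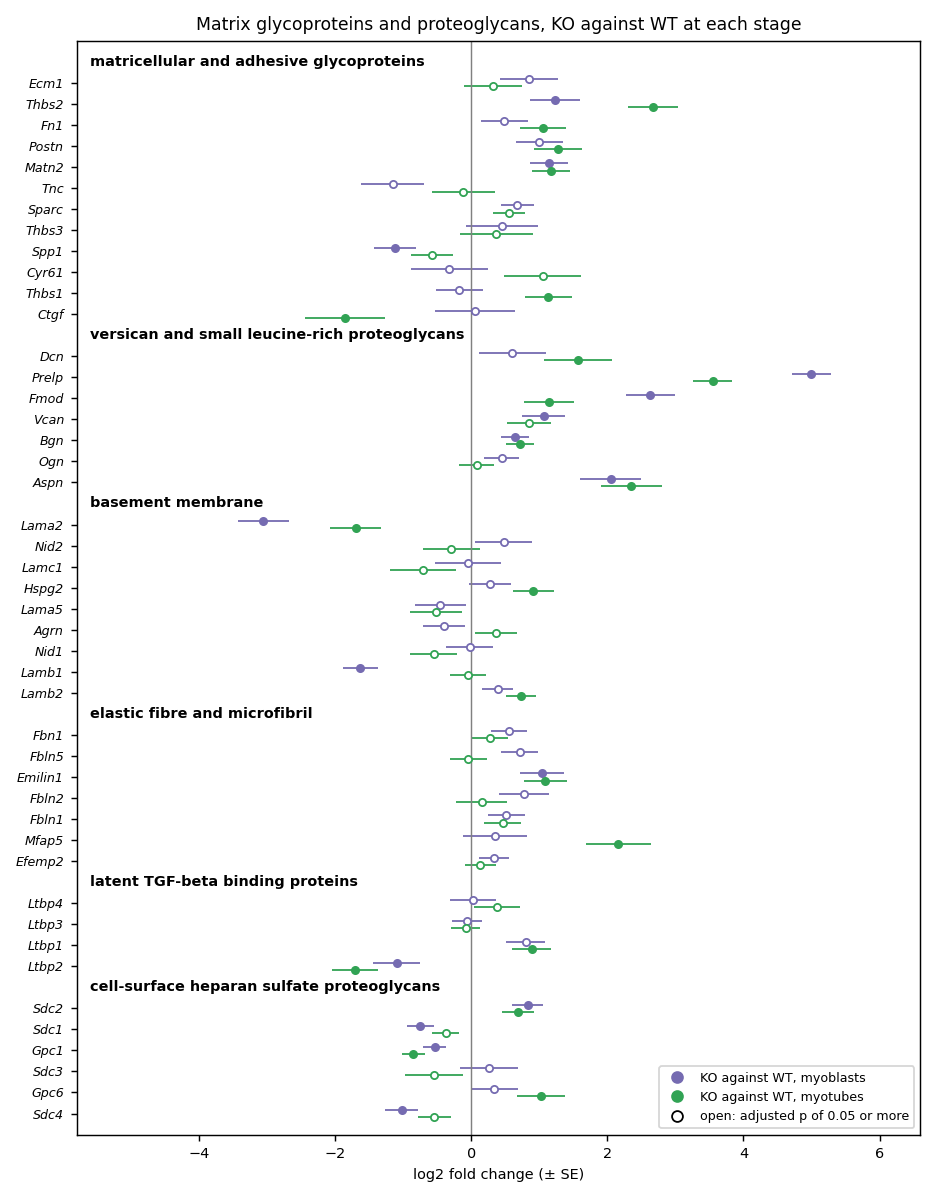
Log2 fold change of KO against WT (x axis) for the same 45 genes in myoblasts (purple) and myotubes (green), in the same order. Bars are the SE of limma (n = 4 per group) and filled points have an adjusted p under 0.05, with Prelp, Fmod, Aspn and Thbs2 to the right of 0 and Lama2 and Ltbp2 to its left at both stages.

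Most small leucine-rich proteoglycans, and versican, rose with differentiation and were higher in KO cells at some stage. Of the 7 tested, 6 rose in WT and 5 in KO differentiation, against 13.8 and 17.3% of all tested genes. In KO, 5 of the 7 were higher at each stage, against 7.26 and 9.74%, and 0 were lower, against 8.5 and 13.7%, a background at which 0 of 7 is no result. At an unadjusted p under 0.05, 0 of the 7 were lower in KO at either stage, and limma voom called 0 lower. Prelp, which binds collagen and the heparan sulfate of basement membranes, lies on chromosome 1 at 133910304-133921414 (minus strand) of GRCm38. The RefSeq bases before its start are shown because Prelp had the largest KO against WT difference of the 45 genes, and those of Thbs2, Lama2 and Lamb1 appear where these genes are described. In these windows capitals mark each match to the E-box CANNTG, the element bound by MyoD and its relatives. The element bound by TEAD factors, GGAATG, and the GC box GGGCGG were also searched, on both strands, and a base could count toward more than 1 motif. The 250 bases before the Prelp start (GRCm38.p6, chr1:133921402-133921651, minus strand) held no match to any of the 3. Sequences were found for 38 of the 54 genes, in 50 windows, of which 64.0% held an E-box, 10.0% a TEAD element and 62.0% a GC box, against 66.2%, 12.6% and 32.7% of all 32851 windows of the same length.
Prelp: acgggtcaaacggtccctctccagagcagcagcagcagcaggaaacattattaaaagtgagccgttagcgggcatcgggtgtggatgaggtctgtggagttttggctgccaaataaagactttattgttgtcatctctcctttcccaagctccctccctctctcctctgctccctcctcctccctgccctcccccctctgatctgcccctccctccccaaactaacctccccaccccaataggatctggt

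The normalized counts of Prelp were 3.69, 0.964, 1.0 and 1.78 in WT myoblasts and 42.3, 35.1, 37.2 and 44.6 in WT myotubes. In KO cells they were 98.9, 55.6, 121 and 76.8 in myoblasts and 608, 500.5, 365 and 454 in myotubes. No library of a group overlapped with another group, and each KO myoblast library lay above each WT myotube library. Prelp rose in WT (3.92 ± 0.29, adjusted p = 2.62e-09) and in KO differentiation (2.47 ± 0.29, adjusted p = 1.12e-06). It was higher in KO myoblasts (5.00 ± 0.29, adjusted p = 2.19e-11) and in KO myotubes (3.55 ± 0.29, adjusted p = 3.46e-08). WT myoblasts held 8 reads of Prelp in all 4 libraries and KO myoblasts 411, a ratio of 46.4 with a counting interval (95%, exact) of 23.3 to 108. The KO change minus the WT change was -1.45 ± 0.41 on the log2 scale, which missed the threshold (adjusted p = 0.0523). All counting intervals here cover counting error only, and 9.68% of the exonic bases of Prelp overlap an antisense gene, whose reads cannot be told apart where the strand of counting is not stated.

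Dcn encodes decorin, which binds collagen fibrils and TGF-beta, and it rose most of the 45 genes in both lines. Its normalized counts were 2.77, 0.964, 0 and 0.891 in WT myoblasts, 81.2, 17.1, 53.9 and 60.4 in WT myotubes, 5.25, 0.83, 0.868 and 2.5 in KO myoblasts and 203, 115, 151 and 106 in KO myotubes. Myoblasts of both lines had at most a few reads per library, and each myotube library lay far above them. The log2 fold change was 4.61 ± 0.50, adjusted p = 7.92e-07 in WT and 5.58 ± 0.50, adjusted p = 2.53e-08 in KO differentiation. Counted in reads, 5 in WT myoblasts against 232 in WT myotubes give a ratio of 45.2 (counting interval 19.1 to 140.5), and 11 against 510 in KO cells a ratio of 65.4 (36.2 to 132). KO myotubes were higher than WT myotubes (1.57 ± 0.50, adjusted p = 0.0265), and the groups did not overlap. That call was lost when 1 of these libraries was left out, WT myotube replicate 2 or KO myotube replicate 1 or 3 (adjusted p up to 0.105), as for all calls said below to be lost without a library. It was also lost with a pseudocount of 0.5 (0.0553) and with array weights (0.0666) (adjusted p in parentheses, here and below).

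Fmod (fibromodulin) and Aspn (asporin) are collagen-binding members of the same family. Fmod had normalized counts of 7.38, 6.75, 7.0 and 3.56 in WT myoblasts, 56.1, 30.6, 26.9 and 21.8 in WT myotubes, 57.8, 30.7, 59.9 and 30 in KO myoblasts and 143, 54, 57.6 and 58 in KO myotubes. KO myoblasts overlapped with WT myotubes, while WT myoblasts were lower than every other group. It rose in WT differentiation (2.23 ± 0.36, adjusted p = 0.000157), and the KO value was 0.74 ± 0.36, adjusted p = 0.124. It was higher in KO myoblasts (2.63 ± 0.36, adjusted p = 1.55e-05) and in KO myotubes (1.14 ± 0.36, adjusted p = 0.027), where the groups overlapped and the call was lost without WT myotube replicate 2, 3 or 4 or KO myotube replicate 1 (adjusted p up to 0.107).

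Aspn had 4.61, 8.68, 5.0 and 12.5 in WT myoblasts, 38, 4.5, 10.2 and 16.8 in WT myotubes, 35, 23.2, 39 and 35.9 in KO myoblasts and 99.7, 91.9, 52.2 and 58 in KO myotubes. Every KO library was above every WT library of its stage. The difference was 2.05 ± 0.45, adjusted p = 0.00246 in myoblasts and 2.35 ± 0.45, adjusted p = 0.000667 in myotubes. Differentiation gave 0.82 ± 0.45, adjusted p = 0.197 in WT and 1.13 ± 0.45, adjusted p = 0.0578 in KO cells, neither past the threshold.

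Vcan encodes versican, a large chondroitin sulfate proteoglycan that binds hyaluronan. Its normalized counts were 102, 116, 77.1 and 42.8 in WT myoblasts, 385, 185, 385 and 236 in WT myotubes, 230.1, 92.1, 246 and 147 in KO myoblasts and 574, 632, 487 and 388 in KO myotubes. Myotube libraries lay above the myoblast libraries of their line, and Vcan rose in WT (1.83 ± 0.32, adjusted p = 0.000297) and KO differentiation (1.61 ± 0.32, adjusted p = 0.000532). It was higher in KO myoblasts (1.06 ± 0.32, adjusted p = 0.025), where the groups overlapped and the call was lost without WT myoblast replicate 3 or 4 or KO myoblast replicate 1 or 3 (adjusted p up to 0.117). In myotubes the difference was 0.85 ± 0.32, adjusted p = 0.0581. Bgn (biglycan), a close relative of decorin, rose from 2183 ± 358 to 4888 ± 274 in WT and from 3403 ± 566 to 8256 ± 2174 (mean ± SD, n = 4) in KO cells, and was higher in KO by 0.64 ± 0.20, adjusted p = 0.0334 in myoblasts and 0.72 ± 0.20, adjusted p = 0.0137 in myotubes. The myoblast call of Bgn was lost without WT myoblast replicate 2, 3 or 4 or KO myoblast replicate 1, 3 or 4 (adjusted p up to 0.119). Ogn (osteoglycin) rose in WT (1.06 ± 0.25, adjusted p = 0.00447) and in KO cells (0.70 ± 0.25, adjusted p = 0.0378), the latter not without KO myoblast replicate 1, 2 or 4 or KO myotube replicate 1 or 2 (adjusted p up to 0.105). Lum (lumican) had at most 3 reads in a library and was not tested.

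**Figure D3:**
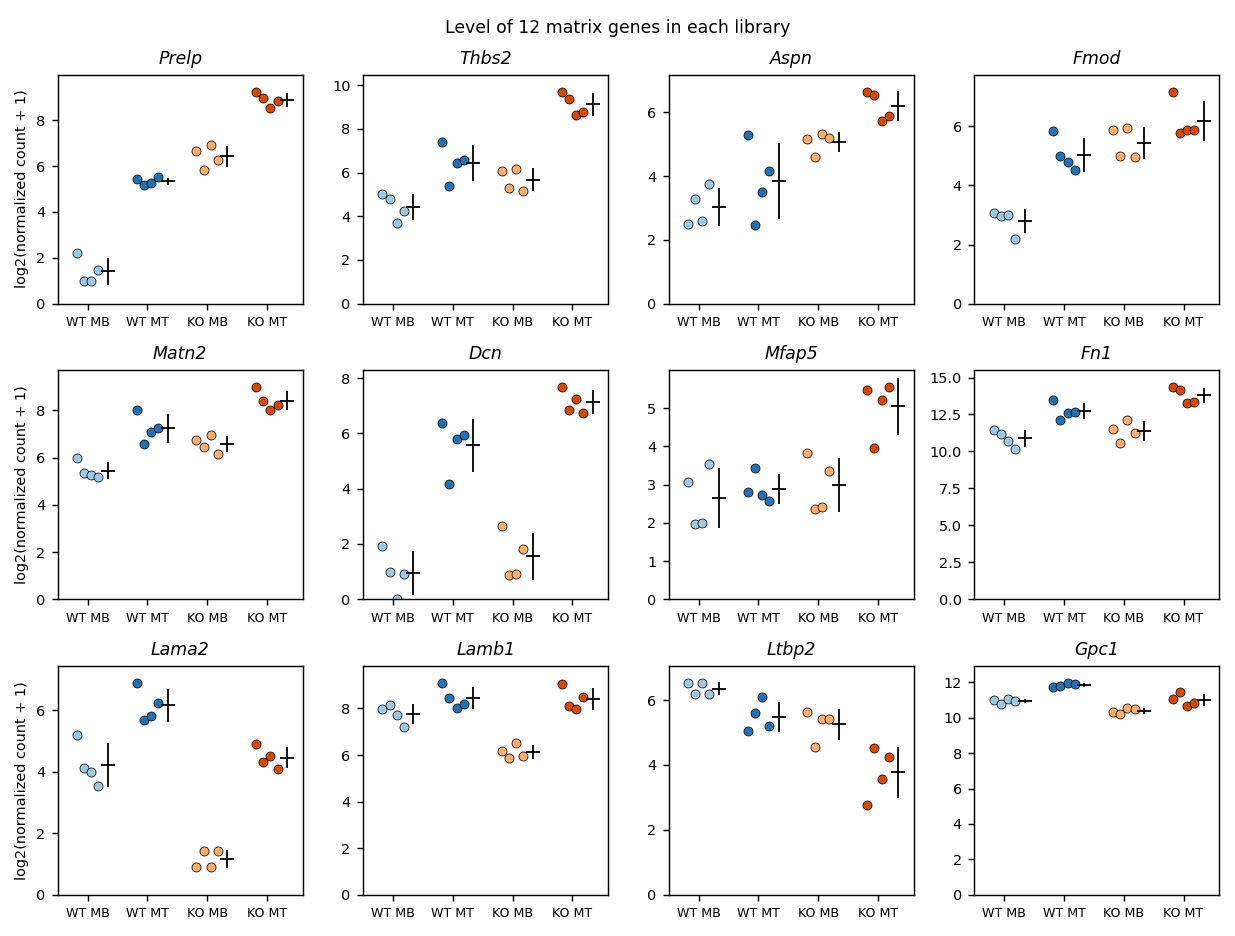
Level of 12 genes in each of the 16 libraries, as log2(normalized count + 1), in WT myoblasts (WT MB), WT myotubes (WT MT), KO myoblasts (KO MB) and KO myotubes (KO MT). Each point is 1 library, the bar is the mean ± SD of the log2 values (n = 4), and replicates 1 to 4 run from left to right. Prelp and Aspn have KO points above all WT points of the same stage, Lama2, Ltbp2 and Gpc1 have them below, and Lamb1 has low KO myoblasts and overlapping myotubes.

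Among the adhesive and matricellular glycoproteins, 7 of the 12 tested rose in WT and 9 in KO differentiation, against 13.8 and 17.3% of all tested genes, with Ctgf falling in KO cells. In KO myoblasts, Thbs2 and Matn2 were higher and Spp1 lower, against 7.26 and 8.5%. In KO myotubes, Thbs2, Postn, Matn2, Thbs1 and Fn1 were higher and Ctgf lower, against 9.74 and 13.7%. Thbs2 encodes thrombospondin 2, a matricellular protein that binds matrix proteases and cell-surface receptors. It lies on chromosome 17 at 14665500-14694235 (minus strand, GRCm38), and the 250 bases before its RefSeq start (GRCm38.p6, chr17:14694263-14694512, minus strand) held 1 E-box, CACTTG, beginning 246 bases before the start, and no TEAD element or GC box. This window is shown because Thbs2 was higher in KO cells at both stages.
Thbs2: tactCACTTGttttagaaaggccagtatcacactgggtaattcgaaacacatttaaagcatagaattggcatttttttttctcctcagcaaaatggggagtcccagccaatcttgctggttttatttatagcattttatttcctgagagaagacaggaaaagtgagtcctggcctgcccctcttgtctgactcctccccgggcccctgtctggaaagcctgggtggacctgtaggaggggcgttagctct

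The normalized counts of Thbs2 were 31.4, 27, 12 and 17.8 in WT myoblasts, 169, 40.5, 85.5 and 93.1 in WT myotubes, 66.5, 38.2, 70.3 and 34.2 in KO myoblasts and 834, 658, 394 and 432 in KO myotubes. KO myotubes were the highest group, and each of their libraries lay well above all libraries of the other groups. Thbs2 rose in WT (2.0 ± 0.37, adjusted p = 0.000523) and in KO differentiation (3.45 ± 0.37, adjusted p = 3.52e-07), and the difference between these changes was 1.44 ± 0.52, adjusted p = 0.14. KO was higher in myotubes (2.67 ± 0.37, adjusted p = 2.58e-05) and in myoblasts (1.23 ± 0.37, adjusted p = 0.0258). The myoblast call was lost with limma voom (adjusted p = 0.107) and without WT myoblast replicate 3 or 4 or KO myoblast replicate 1 or 3 (adjusted p up to 0.11). Thbs1, the relative that can activate latent TGF-beta, had 446 ± 109, 268 ± 59.8, 432 ± 215 and 629 ± 276 (mean ± SD, n = 4) in WT myoblasts, WT myotubes, KO myoblasts and KO myotubes. It was higher in KO myotubes (1.13 ± 0.34, adjusted p = 0.0202), a call lost without WT myotube replicate 2 or KO myotube replicate 1 or 2 (adjusted p up to 0.0626). Thbs3 passed no test, with means between 7.44 and 18.6.

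Fn1 encodes fibronectin, the glycoprotein to which many integrins bind. Its normalized counts were 2808, 2309.8, 1702 and 1154 in WT myoblasts and 11459, 4510.5, 6206 and 6628 in WT myotubes, and 2892, 1504, 4542 and 2478 in KO myoblasts and 20961, 17833, 10008 and 10606 in KO myotubes. Myotubes of each line lay above its myoblasts in every library. Fn1 rose in WT (1.84 ± 0.34, adjusted p = 0.000549) and in KO differentiation (2.42 ± 0.34, adjusted p = 1.4e-05) and was higher in KO myotubes than in WT myotubes (1.05 ± 0.34, adjusted p = 0.0294). WT myotube replicate 1 exceeded KO myotube replicates 3 and 4, and that call was lost without WT myotube replicate 2, 3 or 4 or KO myotube replicate 1 or 2 (adjusted p up to 0.0929). In myoblasts the difference was 0.49 ± 0.34, adjusted p = 0.394.

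Matn2 (matrilin-2), an adaptor between matrix filaments, had 61.8, 39.5, 37 and 35.6 in WT myoblasts, 261, 94.5, 136 and 153 in WT myotubes, 108, 86.3, 122 and 70.9 in KO myoblasts and 508, 333, 260.0 and 304 in KO myotubes. It rose in both lines (1.80 ± 0.28, adjusted p = 7.18e-05 in WT and 1.83 ± 0.28, adjusted p = 2.79e-05 in KO) and was higher in KO at both stages (1.14 ± 0.28, adjusted p = 0.00542 in myoblasts and 1.17 ± 0.28, adjusted p = 0.00374 in myotubes). WT myotube replicate 1, at 261, overlapped with the KO myotubes. Postn (periostin), a matricellular protein of connective tissue, had 13.8, 15.4, 11 and 8.02 in WT myoblasts, 80.3, 24.3, 41.8 and 46.6 in WT myotubes, 28, 15.8, 37.3 and 21.7 in KO myoblasts and 174, 118, 85.5 and 77.9 in KO myotubes. It rose in WT (1.83 ± 0.35, adjusted p = 0.000737) and KO cells (2.10 ± 0.35, adjusted p = 9.35e-05) and was higher in KO myotubes (1.27 ± 0.35, adjusted p = 0.0115), where the groups overlapped, with a myoblast difference of 1.00 ± 0.35, adjusted p = 0.0567.

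Tnc (tenascin-C), a matricellular protein of remodelling tissue, had 90.4, 51.1, 63 and 30.3 in WT myoblasts, 322, 142, 144 and 166 in WT myotubes, 37.6, 5.81, 53.8 and 25.9 in KO myoblasts and 269, 115, 154 and 166 in KO myotubes. Myotubes of both lines overlapped in Tnc, which rose in WT (1.72 ± 0.47, adjusted p = 0.0113) and in KO cells (2.76 ± 0.47, adjusted p = 0.000111). The WT call was lost without WT myoblast replicate 4 or WT myotube replicate 1 (adjusted p up to 0.0552). Ecm1, a secreted matrix protein, had 184, 65.6, 89.1 and 49.9 in WT myoblasts, 530.1, 308, 388 and 320.0 in WT myotubes, 161, 78.9, 288 and 158 in KO myoblasts and 821, 835, 330.2 and 214 in KO myotubes. It rose in WT (2.12 ± 0.42, adjusted p = 0.00109) and in KO cells (1.59 ± 0.42, adjusted p = 0.00651), with overlap between KO myoblasts and KO myotubes. Sparc, a collagen-binding protein, went from 3536 ± 893 to 10522 ± 2937 in WT and from 5655 ± 1600.0 to 15098 ± 1378 in KO cells (mean ± SD, n = 4), rising in both (1.57 ± 0.24, adjusted p = 7.54e-05 and 1.45 ± 0.24, adjusted p = 9.14e-05).

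Spp1 (osteopontin), a ligand of integrins and CD44, had 956, 915, 684 and 489 in WT myoblasts, 1843, 652, 747 and 1008 in WT myotubes, 424, 237, 456 and 284 in KO myoblasts and 990.4, 839, 467 and 468 in KO myotubes. KO myoblasts lay below all WT myoblasts (-1.12 ± 0.31, adjusted p = 0.0156), a call lost without WT myoblast replicate 1 or 2 or KO myoblast replicate 2 or 4 (adjusted p up to 0.0588). Spp1 rose in KO differentiation (0.95 ± 0.31, adjusted p = 0.0233) but not without KO myoblast replicate 2 or 4 or KO myotube replicate 1 or 2 (adjusted p up to 0.0887), and its WT value was 0.41 ± 0.31, adjusted p = 0.37. Of the exonic bases of Spp1, 18.75% are shared with an overlapping gene on the same strand. Other genes hold 11.33% of the short sequence stretches at the end of its transcripts. Ctgf and Cyr61 encode members of the CCN family, secreted proteins known as targets of YAP and TGF-beta signalling. Ctgf had 22.1, 18.3, 8.01 and 19.6 in WT myoblasts, 7.77, 3.6, 6.5 and 16.8 in WT myotubes, 20.1, 19.9, 19.1 and 10 in KO myoblasts and 5.81, 0, 3.6 and 0 in KO myotubes. It fell in KO differentiation (-2.90 ± 0.59, adjusted p = 0.000687), from 81 reads in the KO myoblasts to 10 in the KO myotubes, a ratio of 5.74 (counting interval 2.97 to 12.4).

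KO myotubes were also lower in Ctgf than WT myotubes (-1.86 ± 0.59, adjusted p = 0.0256), on 10 against 37 reads and with overlapping groups. KO myotube replicates 2 and 4, the shallowest libraries, had 0 reads of Ctgf, and without both the difference was -0.62 (adjusted p = 0.409). The call was also lost with a pseudocount of 5 (0.0547), with quantile normalization (0.339), with only the 8 samples compared (0.141) and with limma voom (0.094), and without WT myotube replicate 4 or KO myotube replicate 2 or 4 (adjusted p up to 0.103). Of the exonic bases of Ctgf, 23.2% overlap an antisense gene. Cyr61 rose in KO differentiation (1.60 ± 0.57, adjusted p = 0.0339), a call lost without KO myoblast replicate 2 or 4 or KO myotube replicate 1, 3 or 4 (adjusted p up to 0.124). Tgfbi was not tested, and had 12.1, 0.90, 6.5 and 10.9 in WT myotubes against at most 2.7 in any other library.

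In the basement membrane group, 6 of the 9 tested genes rose in each line, against 13.8% of all tested genes in WT and 17.3% in KO, and 0 fell, against 9.16 and 16.1%, at which 0 of 9 is no result. At an unadjusted p under 0.05, 0 of the 9 were lower in either line, and limma voom called 0 lower. Lama2 and Lamb1 were lower in KO myoblasts, against 8.5% of all tested genes, and in KO myotubes Lama2 was lower, against 13.7%, while Hspg2 and Lamb2 were higher, against 9.74%. Lama2 encodes the laminin alpha chain of the basement membrane of mature muscle, whose loss causes congenital muscular dystrophy. Lamb1 encodes a widely expressed laminin beta chain. They lie on chromosome 10 at 26980036-27619758 (minus strand) and on chromosome 12 at 31265234-31329644 (plus strand) of GRCm38. Their RefSeq upstream windows are set side by side because both were lower in KO myoblasts and their KO against WT values in myotubes were -1.70 and -0.05. The Lama2 window (GRCm38.p6, chr10:27616943-27617192, minus strand) held 1 E-box, CATCTG, beginning 180 bases before the start, and no TEAD element or GC box, and it lies inside the annotated gene, since the RefSeq start is downstream of the annotated 5′ end. The Lamb1 window (chr12:31265043-31265292, plus strand) held 2 E-boxes, CACTTG and CATGTG, beginning 243 and 61 bases before the start, and 2 GC boxes and no TEAD element. The last part of the Lamb1 window lies inside the annotated gene, whose 5′ end at 31265234 falls within the CATGTG.
Lama2: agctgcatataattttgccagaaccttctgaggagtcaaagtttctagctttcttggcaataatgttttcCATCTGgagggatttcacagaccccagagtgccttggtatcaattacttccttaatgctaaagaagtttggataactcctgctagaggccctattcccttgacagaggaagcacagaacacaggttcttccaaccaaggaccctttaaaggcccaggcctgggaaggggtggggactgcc
Lamb1: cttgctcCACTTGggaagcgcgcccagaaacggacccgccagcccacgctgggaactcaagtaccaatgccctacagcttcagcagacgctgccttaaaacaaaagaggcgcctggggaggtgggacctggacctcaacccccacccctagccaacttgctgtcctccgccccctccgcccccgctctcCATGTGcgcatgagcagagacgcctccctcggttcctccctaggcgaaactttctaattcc

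The normalized counts of Lama2 were 36, 16.4, 15 and 10.7 in WT myoblasts and 118, 50.4, 54.8 and 74.3 in WT myotubes. KO myoblasts had 0.875, 1.66, 0.868 and 1.67, which is 1 or 2 reads per library, and KO myotubes 29, 19, 21.6 and 16, in the range of WT myoblasts. Lama2 rose in WT (1.94 ± 0.38, adjusted p = 0.000828) and in KO differentiation (3.29 ± 0.38, adjusted p = 8e-07), and the difference between these was 1.36 ± 0.53, adjusted p = 0.175. It was lower in KO myoblasts (-3.06 ± 0.38, adjusted p = 2.92e-06) and in KO myotubes (-1.70 ± 0.38, adjusted p = 0.00225), without overlap. With 83 reads in WT myoblasts and 6 in KO myoblasts, the ratio was 15.3 (counting interval 6.75 to 42.9).

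Lamb1 had 255, 281, 212 and 145 in WT myoblasts, 552, 351, 259 and 295 in WT myotubes, 71.7, 57.3, 91.1 and 60.9 in KO myoblasts and 522, 277, 249 and 359.7 in KO myotubes. All KO myoblasts lay below all WT myoblasts, and the myotubes of the lines overlapped. The KO against WT difference was -1.63 ± 0.26, adjusted p = 8.19e-05 in myoblasts and -0.05 ± 0.26, adjusted p = 0.916 in myotubes. Differentiation raised Lamb1 in KO cells (2.27 ± 0.26, adjusted p = 8.15e-07), with a WT value of 0.69 ± 0.26, adjusted p = 0.0604. The interaction of genotype and differentiation was 1.59 ± 0.37, adjusted p = 0.0163, and Lamb1 was the only one of the 45 genes to pass that test. It passed at an adjusted p under 0.05 in 27 of the 27 alternative fits, which include leaving out each library. Among these fits, median-ratio scaling repeated the main fit and so adds no separate check.

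Hspg2 (perlecan), the large heparan sulfate proteoglycan of basement membranes, went from 60.6 ± 23.5 to 182 ± 86.3 in WT and from 69.2 ± 6.14 to 332 ± 125 in KO cells (mean ± SD, n = 4). It rose in both (1.55 ± 0.30, adjusted p = 0.000901 and 2.19 ± 0.30, adjusted p = 1.06e-05) and was higher in KO myotubes (0.91 ± 0.30, adjusted p = 0.0332), a call lost without WT myotube replicate 2, 3 or 4 or KO myotube replicate 1 (adjusted p up to 0.12). Agrn (agrin), which clusters acetylcholine receptors at the neuromuscular junction, rose in WT (1.19 ± 0.31, adjusted p = 0.00791) and KO cells (1.96 ± 0.31, adjusted p = 4.84e-05). Lama5 also rose in both lines (1.42 ± 0.38, adjusted p = 0.0105 in WT, lost without WT myotube replicate 1 (adjusted p up to 0.0556), and 1.35 ± 0.38, adjusted p = 0.00937 in KO). Lamb2, the beta chain enriched at the neuromuscular junction, rose in KO cells (0.93 ± 0.22, adjusted p = 0.00289) and was higher in KO myotubes (0.73 ± 0.22, adjusted p = 0.0211), the latter not without WT myotube replicate 4 or KO myotube replicate 1 or 2 (adjusted p up to 0.0766).

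Lamc1, the gamma chain shared by most laminins, rose in WT cells (1.57 ± 0.48, adjusted p = 0.0237) but not without WT myoblast replicate 4 or WT myotube replicate 1 (adjusted p up to 0.107), and its KO value was 0.92 ± 0.48, adjusted p = 0.152. Nid2, a nidogen that links laminin to collagen, rose in WT cells (1.84 ± 0.42, adjusted p = 0.00341), with a KO value of 1.07 ± 0.42, adjusted p = 0.0554. Nid1, its relative, passed no test, with means between 119.5 and 218. Lama4 was not tested. It had 0 reads in all WT myoblast libraries, which allows up to 3 reads per library, and 11.6, 13.1, 2.7 and 16 in KO myotubes.

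Of the 12 genes of elastic fibres and microfibrils, 7 were tested, and 3 rose in WT and 4 in KO differentiation, against 13.8 and 17.3% of all tested genes. None fell, against 9.16 and 16.1%, at which 0 of 7 is no result. At an unadjusted p under 0.05, 0 of the 7 were lower in either line, and limma voom called 0 lower. Fbn1 (fibrillin-1), the main component of microfibrils, had 181, 189, 133 and 82 in WT myoblasts, 1098, 584, 828 and 821 in WT myotubes, 210.0, 140.3, 295 and 203 in KO myoblasts and 1000.1, 855, 785 and 1405 in KO myotubes. Every myotube library was above every myoblast library, and the lines overlapped at each stage. Fbn1 rose in WT (2.54 ± 0.26, adjusted p = 4.37e-07) and in KO cells (2.26 ± 0.26, adjusted p = 1.11e-06). Of its exonic bases, 20.1% overlap an antisense gene.

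Mfap5, a small glycoprotein of microfibrils, had 7.38, 2.89, 3.0 and 10.7 in WT myoblasts, 6.04, 9.89, 5.58 and 4.95 in WT myotubes, 13.1, 4.15, 4.34 and 9.18 in KO myoblasts and 43.6, 14.6, 36 and 46 in KO myotubes. KO myotubes lay above the 12 other libraries. Mfap5 rose in KO differentiation (2.06 ± 0.47, adjusted p = 0.00204) and was higher in KO than in WT myotubes (2.16 ± 0.47, adjusted p = 0.00213), whereas its WT change was 0.24 ± 0.47, adjusted p = 0.759. The difference between the changes did not pass the test (1.82 ± 0.67, adjusted p = 0.147).

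Fbln5 (fibulin-5), which helps assemble elastic fibres, rose in WT (1.87 ± 0.27, adjusted p = 4.74e-05) and KO cells (1.11 ± 0.27, adjusted p = 0.00357). Emilin1, an adhesive glycoprotein of elastic fibres, had means of 22.8 ± 7.97 in WT myoblasts, 44.3 ± 16 in WT myotubes, 46.6 ± 9.99 in KO myoblasts and 96.8 ± 41.4 in KO myotubes (± SD, n = 4). It passed each of the 4 pairwise tests, with log2 values of 0.92 and 0.97 for differentiation in WT and KO and 1.04 and 1.09 for KO against WT in myoblasts and myotubes (largest adjusted p = 0.0433). Each of these calls was lost without some single library, WT differentiation without WT myoblast replicate 3 or 4, WT myotube replicate 1 or 2 or KO myoblast replicate 1 or 4 (adjusted p up to 0.146), KO differentiation without KO myoblast replicate 2 or 4 or KO myotube replicate 1 (adjusted p up to 0.099), the myoblast difference without WT myoblast replicate 3 or 4 or KO myoblast replicate 1, 3 or 4 (adjusted p up to 0.114) and the myotube difference without WT myotube replicate 3 or 4 or KO myotube replicate 1 (adjusted p up to 0.0691). Fbln1, Fbln2 and Efemp2 passed none of the 4 tests. Eln, Fbn2, Efemp1, Mfap2 and Mfap4 were not tested, and elastin (Eln) itself had 1 read in the 16 libraries.

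The latent TGF-beta binding proteins, which tether TGF-beta to microfibrils, split. Ltbp3 and Ltbp4 rose in both lines, and Ltbp2 fell in KO cells, against 13.8 and 17.3% of all tested genes rising and 16.1% falling. Ltbp2, the relative that does not bind latent TGF-beta, had 90.4, 71.4, 92.1 and 71.3 in WT myoblasts, 31.9, 47.7, 66.9 and 35.7 in WT myotubes, 49, 22.4, 41.6 and 41.7 in KO myoblasts and 5.81, 21.9, 10.8 and 18 in KO myotubes. Each KO library lay below each WT library of its stage. Ltbp2 fell in KO differentiation (-1.48 ± 0.34, adjusted p = 0.00222) and was lower in KO myotubes (-1.71 ± 0.34, adjusted p = 0.00105). In KO myoblasts it was also lower (-1.10 ± 0.34, adjusted p = 0.0316), a call lost without WT myoblast replicate 1, 2, 3 or 4 or KO myoblast replicate 2, 3 or 4 (adjusted p up to 0.111). Its WT differentiation value was -0.87 ± 0.34, adjusted p = 0.0722, with the WT groups not overlapping. Of the exonic bases of Ltbp2, 9.335% overlap an antisense gene.

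Ltbp4 had 48.9, 32.8, 31 and 17.8 in WT myoblasts, 145, 82.8, 98.5 and 102 in WT myotubes, 38.5, 19.1, 36.4 and 35.9 in KO myoblasts and 249.8, 175, 105 and 75.9 in KO myotubes. It rose in WT (1.74 ± 0.34, adjusted p = 0.000923) and in KO differentiation (2.09 ± 0.34, adjusted p = 7.43e-05), and the lines overlapped at both stages. Ltbp3 rose in WT (0.61 ± 0.21, adjusted p = 0.0453) and KO cells (0.59 ± 0.21, adjusted p = 0.0388). The WT call of Ltbp3 was lost without WT myoblast replicate 1, 2, 3 or 4, WT myotube replicate 1, 3 or 4 or KO myoblast replicate 1 or 4 (adjusted p up to 0.183), and the KO call without KO myoblast replicate 1, 2 or 4 or KO myotube replicate 2 or 4 (adjusted p up to 0.102). Ltbp1 was higher in KO myotubes (0.89 ± 0.28, adjusted p = 0.0279), a call lost without WT myotube replicate 2, 3 or 4 or KO myotube replicate 1 or 2 (adjusted p up to 0.0792).

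Of the cell-surface heparan sulfate proteoglycans, Sdc1, Sdc2 and Gpc1 rose in both lines, and Sdc2 was higher and Gpc1 lower in KO at both stages. That is 3 of the 6 tested rising in each line, against 13.8 and 17.3% of all tested genes. Gpc1 encodes glypican-1, attached to the membrane by a lipid anchor. It had 2014, 1729, 2114 and 1983 in WT myoblasts, 3389.5, 3519, 4044 and 3806 in WT myotubes, 1288, 1165, 1513 and 1447 in KO myoblasts and 2118, 2788, 1587 and 1842 in KO myotubes. No KO library reached a WT library of its stage. Gpc1 rose in WT (0.91 ± 0.17, adjusted p = 0.000599) and in KO cells (0.60 ± 0.17, adjusted p = 0.0102) and was lower in KO myotubes (-0.85 ± 0.17, adjusted p = 0.00104). The myoblast difference was -0.54 ± 0.17, adjusted p = 0.0344, a call lost without WT myoblast replicate 1, 3 or 4 or KO myoblast replicate 1, 2 or 4 (adjusted p up to 0.101), and 18.9% of the exonic bases of Gpc1 overlap an antisense gene.

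The syndecans span the membrane. Sdc1 had 232, 215, 193 and 167 in WT myoblasts, 665, 386, 454 and 469 in WT myotubes, 102, 140.3, 139 and 98.4 in KO myoblasts and 502, 392, 323 and 302 in KO myotubes. It rose in WT (1.27 ± 0.20, adjusted p = 9.2e-05) and KO cells (1.64 ± 0.20, adjusted p = 1.7e-06), and was lower in KO myoblasts without overlap (-0.75 ± 0.20, adjusted p = 0.0104). Sdc2 had 327, 310.5, 267 and 188 in WT myoblasts, 1109, 518, 865 and 782 in WT myotubes, 556, 394, 603 and 386 in KO myoblasts and 1487, 1561, 1179.5 and 947 in KO myotubes. KO libraries were higher in myoblasts without overlap, and in myotubes with overlap.

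Sdc2 rose in WT (1.56 ± 0.23, adjusted p = 5.41e-05) and KO cells (1.42 ± 0.23, adjusted p = 7.93e-05). KO exceeded WT by 0.83 ± 0.23, adjusted p = 0.0163 in myoblasts, lost without WT myoblast replicate 4 or KO myoblast replicate 1 or 3 (adjusted p up to 0.0777), and by 0.68 ± 0.23, adjusted p = 0.0367 in myotubes, lost without WT myotube replicate 2, 3 or 4 or KO myotube replicate 1 or 2 (adjusted p up to 0.132). Sdc4, the syndecan of focal adhesions, had 174, 192, 148 and 103 in WT myoblasts, 128, 72.9, 112 and 92.1 in WT myotubes, 77, 89.7, 65.9 and 64.2 in KO myoblasts and 104, 56.9, 61.2 and 58 in KO myotubes. It was lower in KO myoblasts without overlap (-1.02 ± 0.24, adjusted p = 0.00421), and the myotube difference was -0.54 ± 0.24, adjusted p = 0.106. Gpc6 was higher in KO myotubes (1.03 ± 0.35, adjusted p = 0.0372), a call lost without WT myotube replicate 1, 2 or 4 or KO myotube replicate 2 or 3 (adjusted p up to 0.119). Sdc3 passed no test and Gpc4 was not tested.

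Within a group, 1 library was the highest or the lowest at many of these genes. Their summed normalized count ranged, as a share of all normalized counts, over 0.369-0.640% (WT myoblasts), 0.928-1.81% (WT myotubes), 0.465-0.949% (KO myoblasts) and 1.49-2.40% (KO myotubes). Sparc, Fn1 and Bgn had the highest means of the 54 genes in every group. WT myotube replicate 1 was the highest of its group in 31 of the 45 tested genes (68.9%), against 32.7% of all tested genes, and replicate 2 the lowest in 35 (77.8%), against 33.2%. KO myoblast replicate 3 was highest in 34 (75.6%), against 24.7%, and replicate 2 lowest in 34 (75.6%), against 36%. In WT myoblasts, replicate 1 was highest in 24 (53.3%), against 23.9%, and replicate 4 lowest in 33 (73.3%), against 26.6%. KO myotube replicate 1 was highest in 26 (57.8%), against 24.2%. In WT myotube replicates 1 to 4 the summed muscle markers were 40112, 29741, 43897 and 33260. The summed matrix counts there were 46602, 26938, 32975 and 32578. In KO myotube replicates 1 to 4 the muscle sums were 12903, 15215, 17008 and 16008. The matrix sums there were 64027, 57490, 39531 and 44284. The part of the muscle markers in the matrix levels was not tested. The variation that these genes share within a group is part of the SE given for each gene. The SE does not cover the link between genes, so the counts of called matrix genes are not counts of independent genes.

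**Figure D4:**
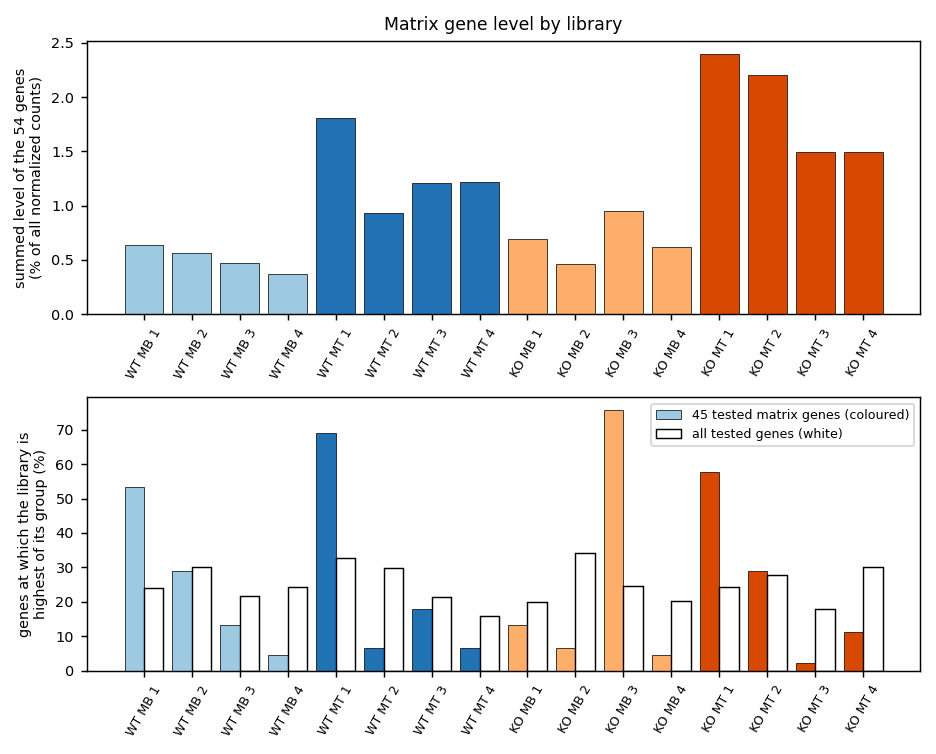
Top, summed level of the 54 genes in each library, as a percentage of all normalized counts, with all myotubes above the myoblasts of the same line and WT myotube replicate 2 (0.928%) just below KO myoblast replicate 3 (0.949%). Bottom, percentage of the 45 tested matrix genes (coloured) and of all tested genes (white) at which a library is the highest of its 4 replicates, with WT myotube replicate 1 and KO myoblast replicate 3 the tallest coloured bars.

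Markers of other cell types were mixed in level and direction. Of 15 fibroblast markers, Tcf21 had 0 reads in all libraries and Thy1 a mean of at most 0.675 in a group, while the summed level, mostly of S100a4, was 23723 to 31943 in WT myoblasts and 17410.5 to 21094 in KO myoblasts. In myotubes it was 8441 to 18466 in WT and 10586 to 17750.1 in KO. Of the 8 fibroblast markers tested, with log2 fold changes in parentheses here and for the other markers, Ly6a was higher (3.75) and Cd34 (-3.18) and Osr1 (-2.47) lower in KO myoblasts. In KO myotubes, Ly6a (1.99), Pdgfrb (0.97) and Tcf4 (0.61) were higher and Cd34 (-1.11) and Osr1 (-3.53) lower, and the Pdgfrb call was lost without WT myotube replicate 2 or 3 or KO myotube replicate 1 (adjusted p up to 0.0999).

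Of 10 chondrocyte and osteoblast markers, 2 were tested, and Sox9 was higher in KO at both stages (0.89 in myoblasts and 0.84 in myotubes), whereas Acan, Col2a1 and Comp had group means of at most 0.484. Their summed level was 439 to 495 in WT and 658 to 1103 in KO myoblasts, and 295 to 492 in WT and 381 to 885 in KO myotubes. Of 7 adipocyte markers, 3 were tested, and Lpl was higher in KO at both stages (2.99 in myoblasts and 1.62 in myotubes), as was Pparg in myoblasts (1.84), a call lost without WT myoblast replicate 1, 2, 3 or 4 or KO myoblast replicate 1, 3 or 4 (adjusted p up to 0.122). Adipoq and Plin1 had 0 reads in all libraries, and the summed level was 75.7 to 97.1 in WT and 129.5 to 176 in KO myoblasts, and 109 to 202 in WT and 215 to 451 in KO myotubes. The 9 endothelial and blood markers, none of which was tested, summed to at most 26.1 in a library. The part of these markers in the KO against WT differences was not tested.

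Other gene lists place these genes in their pathway. Of 87 other matrix glycoproteins and proteoglycans, 39 were tested, and 10 rose and 5 fell in WT (25.6 and 12.8%, against 13.8 and 9.16% of all tested genes), while 16 rose and 5 fell in KO differentiation (41.0 and 12.8%, against 17.3 and 16.1%). KO was higher for 7 and lower for 9 in myoblasts (17.9 and 23.1%, against 7.26 and 8.5%), and higher for 10 and lower for 8 in myotubes (25.6 and 20.5%, against 9.74 and 13.7%). Lama1, the laminin alpha chain of early basement membranes, rose in WT (3.96 ± 0.57, adjusted p = 3.65e-05) and KO cells (3.26 ± 0.57, adjusted p = 0.000152) from 1 or 2 reads in the myoblasts (81 against 1 reads, a ratio of 78.9, counting interval 13.8 to 3154 in WT, and 46 against 2 reads, a ratio of 32.5, counting interval 8.49 to 276 in KO). Edil3 and Npnt, integrin ligands, also rose in WT (2.25 and 2.06), as Edil3 (4.11) and Lamb3 (2.87) did in KO cells. Npnt was called higher in KO differentiation as well. Pcolce2 fell in WT (-1.24 ± 0.28, adjusted p = 0.00337) and in KO differentiation (-1.40 ± 0.28, adjusted p = 0.000706). Lgals3 (-1.17) and Lgals1 (-1.09) fell in WT cells, the latter not with quantile normalization (adjusted p = 0.102) or without the filter (adjusted p = 0.0523), and Prg4 (-2.68) and Podnl1 (-1.40) fell in KO cells. Lgals3 and Lgals1 were also called lower in KO cells and Podnl1 in WT cells. Each of these further calls was lost without some single library (adjusted p up to 0.0707, 0.091 and 0.0622).

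Mgp, the matrix Gla protein that limits calcification, was measured at 805, 607, 822 and 3395 on average in WT myoblasts, WT myotubes, KO myoblasts and KO myotubes, and was higher in KO myotubes (2.50 ± 0.17, adjusted p = 1.28e-09). Wisp2, a CCN family member, was higher in KO at both stages (3.90 and 3.99), as was Fbln7 (3.22 and 4.28). Spock2 (-3.75 and -2.41) and Fndc1 (-3.00 and -3.44) were lower at both. In myoblasts, Prg4 was higher (3.89, 99 against 2 reads, a ratio of 44.7, counting interval 12.1 to 374) and Lamb3 lower (-2.61), and in myotubes Smoc2 was lower (-2.21). Smoc2 was also called lower in KO myoblasts. The interaction was called for Mgp (2.47 ± 0.23, adjusted p = 5.45e-07), Lamb3 (2.13 ± 0.49, adjusted p = 0.0157) and Prg4 (-3.53 ± 0.93, adjusted p = 0.037), the last not without WT myoblast replicate 1, 2, 3 or 4, WT myotube replicate 1, 3 or 4 or KO myoblast replicate 1, 3 or 4 (adjusted p up to 0.0979). The Prg4 call was also lost with a pseudocount of 0.5 (0.0667), with quantile normalization (0.0583), with limma voom (0.0762) and without the 2 shallowest KO myotube libraries (0.0825).

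The enzymes that build and modify glycosaminoglycan chains, the sugars of the proteoglycans above, gave 35 tested genes of 53, of which 12 rose and 0 fell in WT (34.3 and 0%, against 13.8 and 9.16% of all tested genes) and 17 rose and 3 fell in KO differentiation (48.6 and 8.57%, against 17.3 and 16.1%). At an unadjusted p under 0.05, 0 of the 35 were lower in WT differentiation, and limma voom called 0 lower. Sulf2, which removes sulfate from heparan sulfate outside the cell, averaged 43, 81.9, 42.4 and 289 in WT myoblasts, WT myotubes, KO myoblasts and KO myotubes. It rose in KO differentiation (2.72 ± 0.24, adjusted p = 2.23e-08) and was higher in KO myotubes (1.79 ± 0.24, adjusted p = 1.94e-05), and its interaction was called (1.77 ± 0.34, adjusted p = 0.00367). Sulf2 was also called higher in WT differentiation. Its relative Sulf1 was lower in KO at both stages (-3.64 ± 0.45, adjusted p = 3.53e-06 in myoblasts and -2.93 ± 0.45, adjusted p = 8.16e-05 in myotubes). The chondroitin sulfotransferases Chst11 and Chst15 rose in KO cells (2.53 and 2.40). Chst11 was also called higher in WT differentiation, and Chst15 was lower in KO myoblasts (-2.12 ± 0.23, adjusted p = 5.96e-07). Their interactions were 1.97 ± 0.33, adjusted p = 0.000919 for Chst15 and 1.47 ± 0.36, adjusted p = 0.0237 for Chst11, the latter lost without WT myoblast replicate 1 or 2, WT myotube replicate 3 or 4 or KO myoblast replicate 1 (adjusted p up to 0.0644).

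Glce, an epimerase of heparan sulfate, rose in WT cells (1.48 ± 0.26, adjusted p = 0.000318), as did Xylt2 (1.36) and Dse (1.19), both lost without WT myotube replicate 1 (adjusted p = 0.0612 and 0.0632). Xylt2 was also called higher in KO differentiation. Dse, Glce and Hs6st1 were higher in KO myoblasts (1.31, 1.14 and 0.92). Papss2, which makes the sulfate donor, was lower in KO myoblasts (-2.15 ± 0.57, adjusted p = 0.0121), a call lost without KO myoblast replicate 3 (adjusted p up to 0.0514), and in KO myotubes (-1.62 ± 0.57, adjusted p = 0.0453), lost without WT myoblast replicate 1, 2, 3 or 4, WT myotube replicate 2, 3 or 4, KO myoblast replicate 4 or KO myotube replicate 3 or 4 (adjusted p up to 0.165). The latter was also lost with a pseudocount of 0.5 (0.0569), without the filter (0.0718), with quantile normalization (0.177) and with only the 8 samples compared (0.133). Papss1 was higher (0.99 ± 0.19, adjusted p = 0.000629) and the hyaluronan synthase Has2 lower (-1.38 ± 0.33, adjusted p = 0.00425) in KO myotubes. Has2 was also called lower in KO myoblasts, a call lost without some single library (adjusted p up to 0.114). Hs3st3a1 (-1.48), Fam20b (-1.15) and Hs6st1 (-0.55) fell in KO differentiation, the last not without KO myoblast replicate 3 or KO myotube replicate 1 (adjusted p up to 0.0638), and the interaction was called for Hs6st1 (-1.18 ± 0.24, adjusted p = 0.00653). Hs6st1 was called higher in WT differentiation.

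Of 33 receptors of these ligands, 26 were tested, and 15 rose and 0 fell in WT (57.7 and 0%, against 13.8 and 9.16% of all tested genes) and 15 rose and 2 fell in KO differentiation (57.7 and 7.69%, against 17.3 and 16.1%). At an unadjusted p under 0.05, 1 of the 26 (Lgr6) was lower in WT differentiation, and limma voom called it lower too. Cd36 (3.49), Itga4 (2.92) and the collagen receptor chain Itga11 (2.53) rose in WT cells. Itga7, the laminin receptor chain of muscle, rose in KO cells (3.50 ± 0.29, adjusted p = 9.51e-09), as did Itga10 (3.38) and the agrin receptor Lrp4 (2.65). Itga7, Lrp4 and Itga11 were called higher in both lines, Cd36 and Itga4 in WT cells only and Itga10 in KO cells only. Hmmr, which binds hyaluronan and also the mitotic spindle, fell in KO cells (-2.48 ± 0.28, adjusted p = 6.05e-07), and Plaur fell (-0.97 ± 0.36, adjusted p = 0.0443), the latter not without WT myoblast replicate 3, WT myotube replicate 2, 3 or 4, KO myoblast replicate 1, 3 or 4 or KO myotube replicate 3 or 4 (adjusted p up to 0.171). The Plaur call was also lost without the filter (0.0697), with only the 8 samples compared (0.119) and with limma voom (0.0698). In KO myoblasts, Itga11 (1.20) and Itgb5 (0.88) were higher and Lgr6 (-3.45), Musk (-2.11) and Itga10 (-1.94) lower. Musk was also called lower in KO myotubes. The Itga11 call was lost without WT myoblast replicate 3 or 4 or KO myoblast replicate 1, 2 or 3 (adjusted p up to 0.117) and the Itgb5 call without WT myoblast replicate 2 or 4 or KO myoblast replicate 2 (adjusted p up to 0.0787). The Itga11 call was also lost without the filter (0.052) and with limma voom (0.121).

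In KO myotubes, Itgb5 (1.13 ± 0.25, adjusted p = 0.00266) and Itgb4 (1.52 ± 0.54, adjusted p = 0.0466) were higher, the latter not without WT myoblast replicate 1, 2 or 3, WT myotube replicate 1, 2 or 4, KO myoblast replicate 2, 3 or 4 or KO myotube replicate 1, 2 or 4 (adjusted p up to 0.109). The Itgb4 call was also lost without the filter (0.0731), with the replicate number as a block (0.0594), with only the 8 samples compared (0.116), with array weights (0.16), with limma voom (0.066) and without the 2 shallowest KO myotube libraries (0.135). Itga4 (-3.09 ± 0.70, adjusted p = 0.00282), Cd36 (-2.93 ± 0.73, adjusted p = 0.00561) and Hmmr (-1.79 ± 0.28, adjusted p = 8.28e-05) were lower there. The interaction was called for Itga10 (2.70 ± 0.63, adjusted p = 0.0173), Hmmr (-2.28 ± 0.39, adjusted p = 0.00119) and Lgr6 (2.40 ± 0.61, adjusted p = 0.0307), the last not without WT myoblast replicate 1, 2 or 3, WT myotube replicate 3 or 4, KO myoblast replicate 1 or KO myotube replicate 4 (adjusted p up to 0.0829). The Lgr6 call was also lost without the filter (0.054), with limma voom (0.082) and without the 2 shallowest KO myotube libraries (0.103).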

How the data were processed

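Digital mRNA libraries (single-end, NovaSeq) of 16 C2C12 samples were analysed. The authors trimmed the reads, removed rRNA and phiX reads, aligned with STAR 2.6.0a to mm10 and counted per gene with HTSeq. The deposited values are log2(normalized count + 1), and the normalization tool and the strand setting are not given in the sources used here. Scaling the recovered reads by median ratios gave the same counts of called genes in every comparison as the deposited values. Every deposited value mapped to a whole number of reads within 0.01 read, which gave the depths. Rows without a symbol (74) held 0.0126% of reads and were kept out of the gene lists.

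The deposited log2 values were fitted as they stand with limma 3.58.1 (R 4.3.3, lmFit and eBayes with a trend). The fit had 4 group means over all 16 samples and 12 residual degrees of freedom, for genes with a normalized count of 10 or more in 4 or more samples. A log step had been planned for linear counts and was not needed. Genes with a Benjamini-Hochberg adjusted p under 0.05 were called. Errors are SE for log2 fold changes and SD for levels. Labels call the replicates biological without naming separate cultures, so p-values measure the spread between these samples. Counting intervals are exact binomial (Clopper-Pearson), computed with scipy 1.17.1, and figures were drawn with matplotlib 3.10.9.

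Members and lists were chosen with earlier results of these data known. Full values are given for the 6 called members with the largest rise and the 6 with the largest fall in each pairwise comparison, for members called by the interaction, and for the member of each role group that changed most in WT differentiation. Of the other lists, the 3 called genes with the largest rise and the 3 with the largest fall per comparison are named. Cell type markers, members without a call and genes behind a count of 0 were named outside this rule. Levels are per gene and not per length, so levels of different genes are not compared beyond naming the most counted. Alternatives were other pseudocounts, filters, scalings, weights and thresholds, a fit of the 8 samples compared, limma voom on recovered reads, a replicate block and leaving out libraries. The fit was tested on simulated data.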

Additional observations from a re-analysis of the deposited data

Results flagged for a closer look

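In the 4 replicates of a group, 12 of 180 checked groups (6.67%) held 1 library whose gap to the others was a large part of the group's range, where chance gives about 1 in 20. KO myotube replicate 1 was high for Fmod (143, the others 54 to 57.9), Hspg2 (519, the others 256 to 281) and Sdc4 (104, the others 56.9 to 61.2). WT myoblast replicate 4 was low for Fmod (3.56, the others 6.75 to 7.38), Ltbp3 (66.0, the others 103 to 112) and Gpc6 (18.7, the others 36.9 to 40.0). KO myotube replicate 2 was low for Cyr61 (8.76, the others 31.9 to 40.5) and high for Efemp2 (174, the others 87.9 to 98.8). The remaining values were 10.0 for Ctgf in KO myoblast replicate 4, 67.5 for Agrn in KO myotube replicate 3, 19.1 for Ltbp4 in KO myoblast replicate 2 and 13.5 for Sdc3 in WT myotube replicate 2, each below the other libraries of its group. All are normalized counts.

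The change with differentiation differed between KO and WT cells, by the interaction test of limma, for 11 named genes. Of the 45 matrix genes, 2.22% were called higher and 0% lower, against 1.97 and 1.48% of all tested genes. The shares were 5.13 and 2.56% of the 39 other matrix genes tested. For the 35 enzymes of glycosaminoglycan chains they were 8.57 and 2.86%, and for the 26 receptors 7.69 and 3.85%. The change was larger in KO cells for Lamb1 (1.59 on the log2 scale), Mgp (2.47), Lamb3 (2.13), Chst15 (1.97), Sulf2 (1.77), Chst11 (1.47), Itga10 (2.70) and Lgr6 (2.40). It was lower in KO cells for Prg4 (-3.53), Hs6st1 (-1.18) and Hmmr (-2.28). The calls of Prg4, Chst11 and Lgr6 were lost without some single library (adjusted p up to 0.0979, 0.0644 and 0.0829). Those of Prg4 and Lgr6 were also lost with limma voom (adjusted p = 0.0762 and 0.082). Of the 11 genes, Lamb1 is the one among the 45 tested matrix glycoproteins and proteoglycans described above, and Mgp, Lamb3 and Prg4 belong to the list of other matrix genes.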

How the results depend on the processing

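No result changed direction while past the threshold. Under the alternatives other than leaving out 1 library, 120 of 138 counts of called matrix genes stayed equal or of similar size. This does not show that the same genes were called, and median-ratio scaling, among these alternatives, repeated the main fit. The cause of the change in the other 18 counts was not tested except where the alternative itself sets it (a stricter threshold or filter, fewer samples). Matrix genes called lower in WT differentiation, 0 in the report, were 1 with a pseudocount of 5 (9.93% of all tested genes, against 9.16% in the report), 1 with limma voom (11.5%), 3 with quantile normalization (13.3%), 3 with only the 8 samples compared (13.6%), 3 with array weights (20.6%) and 1 without the 2 shallowest KO myotube libraries (13.4%), a setting chosen after seeing the data. Genes called lower in KO differentiation were 1 with a filter of 50 (17.5% of all tested genes). Genes higher in KO myoblasts were 21 with array weights, where the share of all tested genes called higher went from 7.26 to 16.4%, and 4 at an adjusted p under 0.01 (4.05%), and genes lower there were 3 at that threshold (5.62%). Genes higher in KO myotubes were 5 at that threshold (5.22%) and 11 without the 2 shallowest KO myotube libraries (8.37%). The interaction called 0 higher at an adjusted p under 0.01 (0.892% of all tested genes), and 1 lower with each of a pseudocount of 0.5, a filter of 50, quantile normalization, the replicate block (1.34 to 1.87%) and array weights (5.6%).

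Leaving out each library in turn gave 22 to 29 genes higher and 0 to 1 lower in WT differentiation, and 24 to 31 higher and 2 to 3 lower in KO differentiation. It gave 4 to 13 higher and 4 to 7 lower in KO myoblasts, 8 to 18 higher and 3 to 5 lower in KO myotubes, and 1 to 2 higher and 0 to 2 lower by the interaction. Of all 10767 tested genes, these fits called 1028 to 1663 higher and 536 to 1286 lower in WT differentiation. In KO differentiation they called 1512 to 1899 and 1325 to 1824. The ranges were 577 to 907 and 736 to 1035 in KO myoblasts. In KO myotubes they were 763 to 1125 and 1060 to 1531, and for the interaction 148 to 292 and 83 to 231. On average, samples with the same replicate number did not deviate together (mean r 0.0330 over 24 pairs, above 0.1 in 10). The mean r was -0.0108 over 72 pairs of other numbers. A mean over all pairs cannot show whether some of the samples were paired. With the replicate number as a block, 27 genes rose and 0 fell in WT and 31 rose and 2 fell in KO differentiation, and 11 were higher and 7 lower in KO myoblasts and 19 and 4 in KO myotubes. Of all 10767 tested genes, the block fit called 1496 higher and 999 lower in WT and 1874 and 1754 in KO differentiation. It called 770 and 908 in KO myoblasts and 1047 and 1466 in KO myotubes. Of the named genes, the block ended the call of Itgb4 in KO myotubes (adjusted p = 0.0594). Depth limits genes with few reads such as Ctgf, Lama2 in KO myoblasts and Dcn and Prelp in WT myoblasts.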
